A study of Homo sapiens with 14 samples.

Results

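OLR1, MFAP5 and RGCC are 3 genes measured in MCF-10A, a human mammary epithelial cell line that is immortal but forms no tumours, and taken by name from a table of 34071 loci, of which 27543 have a gene name. They were chosen by their FPKM values in 4 groups, as large increases in YAP 5SA over its empty vector that MRTFB dN did not match over its own. Those increases are therefore given as a description, with no test. The working name for the set was genes that respond to YAP alone. MFAP5 goes against that name, since its level was also higher with the SRF-binding forms of MRTFB than with their empty vector, so the genes are called here by their symbols.

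RNA was sequenced in 14 libraries, 7 groups of 2, from cells harvested on day 2 after infection with a retrovirus. YAP 5SA is a YAP that cannot be phosphorylated at the sites by which the Hippo kinases restrain it, and its reference was the empty pMSCV Hygro vector. All 4 MRTFB forms lack the binding to G-actin (dN): MRTFB dN has no other change, MRTFB dN dPY cannot bind YAP, MRTFB dN Y305A cannot bind SRF, and MRTFB dN Y305A/dPY can bind neither. Their reference was the empty Puro vector. The labels do not give the vector of each construct, the share of cells infected, or whether the libraries of a group came from separate cultures, so p-values measure the spread between these samples, which may be technical.

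YAP is a coactivator that the TEAD transcription factors bring to DNA, and it is held in the cytoplasm when the Hippo kinases are active. MRTFB is a coactivator of SRF that G-actin keeps inactive, and the study asked how its YAP-binding and SRF-binding parts bear on TEAD and YAP target genes. OLR1 encodes LOX-1, a lectin-like scavenger receptor for oxidised low-density lipoprotein, known mainly from endothelial cells and macrophages. MFAP5 encodes a small secreted glycoprotein of the fibrillin microfibrils of the extracellular matrix. RGCC encodes a regulator of the cell cycle that complement activation induces and that has been reported to bind the mitotic kinase CDK1.

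Levels are FPKM, fragments scaled for gene length and library size. The table holds no counts. The depth of the libraries relative to Hygro vector replicate 1, estimated from their lowest values, was lowest in Puro vector replicate 1 (0.31) and highest in YAP 5SA replicate 1 (1.39). Puro vector replicate 1 also stood apart in having 4780 unnamed loci at 1 FPKM or more, against 211 to 669 in the other 13 libraries. MRTFB dN dPY replicate 1 was empty over 5257 loci of chromosomes 7, 8, 9 and X, which were treated as missing there; the 3 genes, on chromosomes 12 and 13, are not among them. The introduced genes were visible, with YAP1 at 625 and 529 FPKM in the YAP 5SA libraries against 32.4 and 23.3 FPKM in the Hygro vector. MKL2, the table's symbol for MRTFB, ranged over the 8 libraries of MRTFB forms between 165 and 610 FPKM, with 6.6 and 3.66 FPKM in the Puro vector. All 12 mammary epithelial markers (KRT5, KRT14, TP63, EPCAM and others) were above 0 in at least 1 library of every group, KRT18 being listed at 0 in replicate 1 of MRTFB dN Y305A and of MRTFB dN Y305A/dPY.

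OLR1 stood at 96.2 and 107 FPKM in the YAP 5SA libraries, against 1.79 and 0.985 FPKM in the Hygro vector. Both YAP 5SA libraries lay far above every other library. OLR1 was at 0.981 and 2.14 FPKM in MRTFB dN and at 1.19 and 1.9 FPKM in MRTFB dN dPY. It was at 0.673 and 0.358 FPKM in MRTFB dN Y305A and at 1.71 and 4.13 FPKM in MRTFB dN Y305A/dPY, against 0.484 and 1.77 FPKM in the Puro vector. After YAP 5SA the order of the group means was MRTFB dN Y305A/dPY, MRTFB dN, MRTFB dN dPY, Hygro vector, Puro vector and MRTFB dN Y305A, and every neighbouring pair in that order overlapped. Mean levels were 102 ± 7.52 FPKM in YAP 5SA and 1.39 ± 0.568 FPKM in the Hygro vector (SD, n = 2 each). The difference was 5.44 ± 0.39 (SE) on the log2(FPKM + 1) scale, or 43.5-fold on FPKM + 1, the fifth highest of 13137 tested loci. For MRTFB dN minus the Puro vector the same quantity was 0.30 ± 0.39, and this low value had a part in the choice of OLR1.

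MFAP5 stood at 67.8 and 79.1 FPKM in the YAP 5SA libraries, against 0.764 and 0.659 FPKM in the Hygro vector. It was at 3.6 and 5.5 FPKM in MRTFB dN and at 3.99 and 8.49 FPKM in MRTFB dN dPY, against 0.295 and 0.36 FPKM in the Puro vector. These 4 libraries of the SRF-binding forms all lay above both vectors, and below both YAP 5SA libraries. The forms that cannot bind SRF were lower, with 0.541 and 0.0555 FPKM in MRTFB dN Y305A and 1.19 and 0.479 FPKM in MRTFB dN Y305A/dPY. In the order of group means, YAP 5SA did not overlap MRTFB dN dPY, which overlapped MRTFB dN. MRTFB dN in turn did not overlap MRTFB dN Y305A/dPY, which overlapped the Hygro vector. Mean levels were 73.5 ± 8.01 FPKM in YAP 5SA and 0.712 ± 0.0738 FPKM in the Hygro vector (SD, n = 2 each), a difference of 5.44 ± 0.34 (SE) on the log2(FPKM + 1) scale, or 43.4-fold on FPKM + 1. Against the Puro vector the log2 difference was 2.04 ± 0.34 in MRTFB dN (4.12-fold on FPKM + 1) and 2.37 ± 0.34 in MRTFB dN dPY (5.18-fold), while it was -0.06 in MRTFB dN Y305A and 0.44 in MRTFB dN Y305A/dPY. These 4 comparisons share their Puro libraries.

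RGCC stood at 27.8 and 42.5 FPKM in the YAP 5SA libraries, against 0.107 and 0.133 FPKM in the Hygro vector. The baseline was so low that no library outside YAP 5SA passed 1.24 FPKM. RGCC was at 0.55 and 0.761 FPKM in MRTFB dN and at 0.311 and 1.24 FPKM in MRTFB dN dPY, against 0.338 and 0.746 FPKM in the Puro vector. It was listed at 0 in replicate 1 of both SRF-binding-deficient forms, with 0.109 FPKM in replicate 2 of MRTFB dN Y305A and 0.0472 FPKM in replicate 2 of MRTFB dN Y305A/dPY. A listed 0 may be a failed estimate: KRT18, an abundant epithelial keratin, is also listed at 0 in these replicate 1 libraries, with 16600 FPKM in replicate 2 of MRTFB dN Y305A and 12200 FPKM in replicate 2 of MRTFB dN Y305A/dPY. The values of RGCC above 0 in these forms lay below both Puro libraries. Mean levels were 35.1 ± 10.4 FPKM in YAP 5SA and 0.12 ± 0.0179 FPKM in the Hygro vector (SD, n = 2 each). The difference was 4.98 ± 0.29 (SE) on the log2(FPKM + 1) scale, or 31.6-fold on FPKM + 1, and it became 7.29 with a pseudocount of 0.1, since adding 1 FPKM understates a change over a baseline near 0. For MRTFB dN minus the Puro vector the difference was 0.11 ± 0.29 with a pseudocount of 1.

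Of the 3 genes, RGCC has an entry in the RefSeq promoter table (build GRCh38.p14, while the FPKM table was made on hg19). Its window is shown for the motifs searched in it, and is chr13:41457300-41457599 on the plus strand, with the 250 bases before the annotated start in lower case and the 50 bases from the start onward in capitals.
RGCC: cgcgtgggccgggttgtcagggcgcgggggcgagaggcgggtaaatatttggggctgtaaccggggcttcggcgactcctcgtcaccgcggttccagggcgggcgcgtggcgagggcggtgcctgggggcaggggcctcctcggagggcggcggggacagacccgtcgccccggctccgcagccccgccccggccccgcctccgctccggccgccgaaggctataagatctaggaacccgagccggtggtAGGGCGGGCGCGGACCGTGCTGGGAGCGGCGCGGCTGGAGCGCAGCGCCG
The TEAD motif GGAATG, found in 14% of 35116 RefSeq promoter windows of the same length, had 0 matches here on either strand. The AP-1 motif TGANTCA (in 7.7% of windows) and the CArG box that SRF binds (in 1.3%) also had 0 matches. These letters are absent from this window, and no other stretch was searched.

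**Figure D1:**
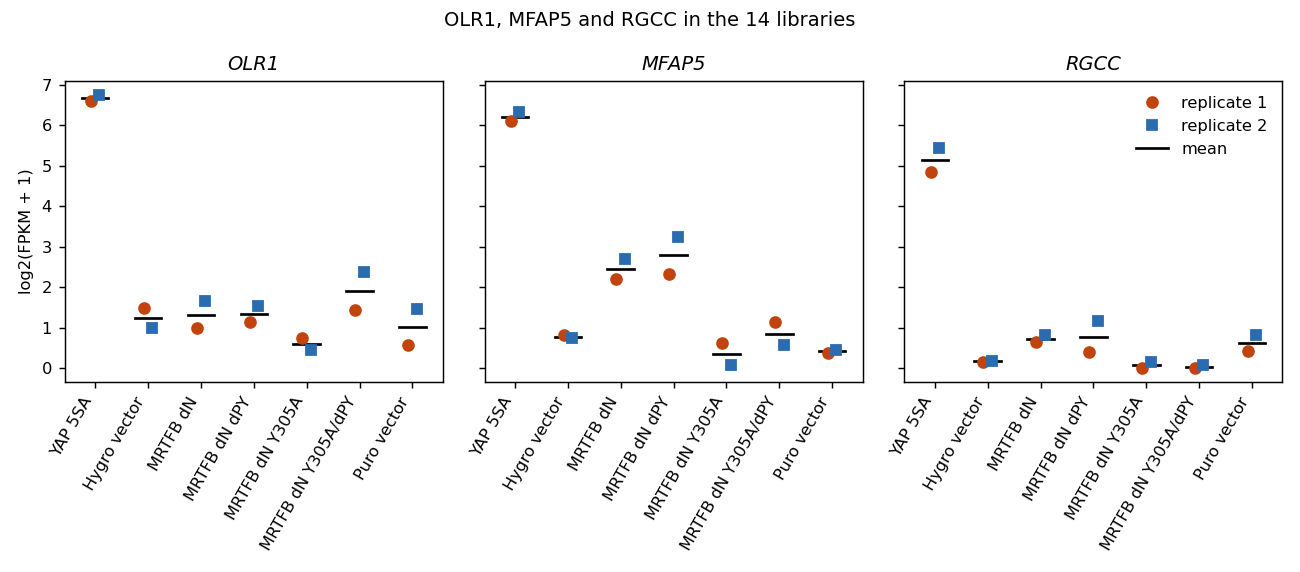
Level of each gene in every library on the log2(FPKM + 1) scale (vertical axis), with circles for replicate 1, squares for replicate 2 and a line for the group mean. The 2 YAP 5SA libraries lie above all others in each panel, and MFAP5 also lies above both vectors in the 4 libraries of MRTFB dN and MRTFB dN dPY.

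Set against the mean level in YAP 5SA, the background was low for all 3 genes. The Hygro vector mean was 1.36% of the YAP 5SA mean for OLR1, 0.969% for MFAP5 and 0.341% for RGCC. The MRTFB dN mean was 1.54% of it for OLR1, 6.19% for MFAP5 and 1.86% for RGCC. Among 13137 tested loci 11 had a log2 difference between YAP 5SA and the Hygro vector at or above that of RGCC, and the 8 besides the 3 genes were all loci with microRNA genes, 6 of them at 0 in 1 of the YAP 5SA libraries. Just below RGCC came ANKRD1, a much used YAP/TEAD target, with 54.6 and 35.5 FPKM in the YAP 5SA libraries against 0.422 and 0.457 FPKM in the Hygro vector. ANKRD1 stood at 982 and 639 FPKM in MRTFB dN against 0.0849 and 0.034 FPKM in the Puro vector, so it was high with both factors. CTGF and CYR61, matricellular YAP/TEAD targets, differed by 3.43 and 3.84 between YAP 5SA and the Hygro vector and by 10.16 and 7.57 between MRTFB dN and the Puro vector, on the log2(FPKM + 1) scale.

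**Figure D2:**
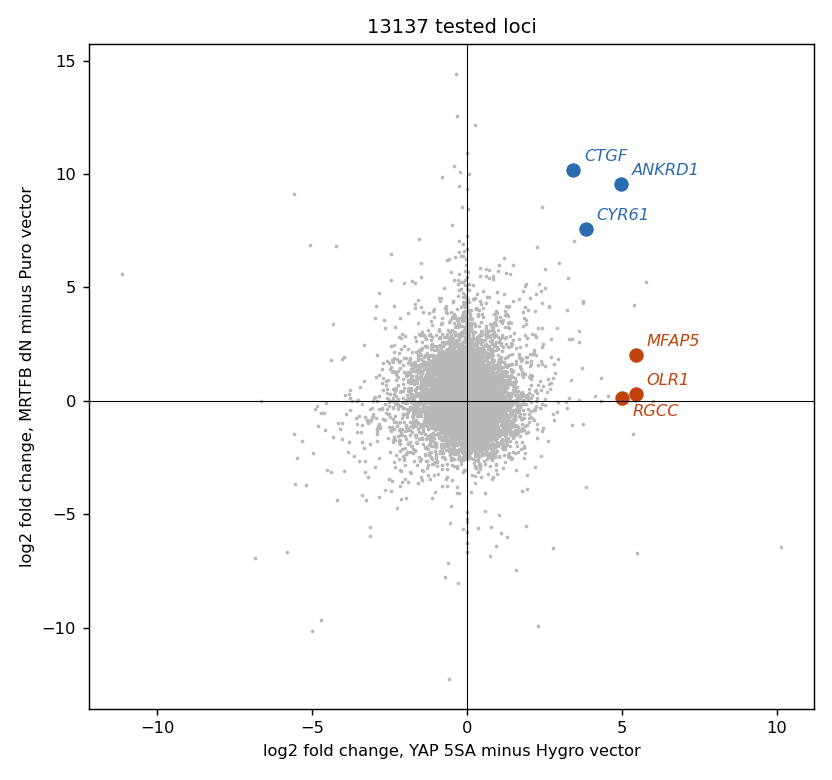
Log2 difference of YAP 5SA minus Hygro vector (horizontal axis) and of MRTFB dN minus Puro vector (vertical axis) for 13137 tested loci (grey). OLR1 (5.44 and 0.30) and RGCC (4.98 and 0.11) lie far right and near the horizontal line. MFAP5 (5.44 and 2.04) lies far right and above that line. The 3 genes lie below CTGF, CYR61 and ANKRD1, and their position was the reason for their choice.

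The groups whose values the rule of choice did not use allow a pair of tests. The genes were chosen with earlier results of these data known, so these tests may not be wholly free of the choice. In MRTFB dN Y305A/dPY minus MRTFB dN dPY, which asks what loss of SRF binding does where YAP binding is already lost, MFAP5 fell by 1.93 on the log2(FPKM + 1) scale (95% interval -2.68 to -1.19, 3.82-fold lower), with both libraries of MRTFB dN Y305A/dPY below both of MRTFB dN dPY. The adjusted p was 0.0025 (limma, Benjamini-Hochberg over 13137 loci). In that comparison 10.7% of tested loci were called lower, 6.76% higher and 17.4% in either direction. The call was lost in a fit of those 4 libraries alone (adjusted p = 0.062, limma). MKL2 itself stood at 610 and 343 FPKM in MRTFB dN Y305A/dPY against 286 and 171 FPKM in MRTFB dN dPY, and its part in the result was not tested. RGCC differed by -0.75 (95% interval -1.38 to -0.11), with MRTFB dN Y305A/dPY replicate 1 entering at its listed 0. Without that library the difference was -0.71 (adjusted p = 0.27, limma). RGCC missed the threshold in limma with all 14 libraries (adjusted p = 0.11). It passed in limma with a replicate block within the 4 MRTFB groups (adjusted p = 0.032) and with a pseudocount of 0.1 (adjusted p = 0.015), both with that 0 included. However, RGCC entered the fit through YAP 5SA, and outside that group only MRTFB dN dPY replicate 2 (1.24 FPKM) reached 1 FPKM. The compared levels lie near the floor, so a call of RGCC in this comparison is not read as a result under any setting. OLR1 differed by 0.57 (95% interval -0.30 to 1.43, adjusted p = 0.4, limma), and the groups overlapped.

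In MRTFB dN Y305A/dPY minus MRTFB dN Y305A, which asks what loss of YAP binding does without SRF binding, none of the 3 genes passed. Here 0% of tested loci were called higher and 0.0152% lower or in either direction, with 271 loci at an unadjusted p under 0.05. OLR1 differed by 1.31 on the log2(FPKM + 1) scale (95% interval 0.45 to 2.17), an unadjusted p of 0.0067 and an adjusted p of 1 in limma. Its 2 libraries of MRTFB dN Y305A/dPY both lay above those of MRTFB dN Y305A. MFAP5 differed by 0.50 (95% interval -0.25 to 1.25) and RGCC, at its listed 0 in replicate 1 of both forms, by -0.04 (95% interval -0.68 to 0.59), each with an adjusted p of 1 in limma, and for both genes the groups overlapped. A p that misses the threshold does not show that the levels were alike, and for OLR1 the interval reaches beyond a 4-fold change.

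The genes of most alike pattern were ranked by Pearson r of log2(FPKM + 1) over the 14 libraries among 7533 single-gene loci that reached 5 FPKM in 2 or more libraries. For OLR1 they were BCAR4 (r = 0.975), HSD3B1 (0.973), RGCC (0.958), NFYB (0.953) and SDK1 (0.951). For RGCC they were BCAR4 (0.99), HSD3B1 (0.975), SDK1 (0.966), OLR1 (0.958) and C4BPB (0.953). BCAR4 is a long noncoding RNA, HSD3B1 a steroid-synthesising dehydrogenase, NFYB a subunit of the CCAAT-binding factor NF-Y, SDK1 a cell adhesion molecule and C4BPB a chain of a complement inhibitor. BCAR4 stood at 14 and 19.8 FPKM in YAP 5SA and was listed at 0 in both Hygro libraries. HSD3B1 stood at 29.6 and 26.1 FPKM in the YAP 5SA libraries, against 0.547 and 0 FPKM in the Hygro vector. Both stayed under 1 FPKM in all 12 libraries without YAP 5SA.

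For MFAP5 the most alike genes were RHOBTB3 (r = 0.956), COL4A3 (0.954), ZDHHC8P1 (0.946), C4BPB (0.944) and YAP1 (0.941). COL4A3 is a chain of basement membrane collagen; ZDHHC8P1 is a pseudogene whose reads may be shared with its parent gene. RHOBTB3 stood at 13.1 and 25.9 FPKM in the YAP 5SA libraries against 2.97 and 2.2 FPKM in the Hygro vector, and at 6.15 and 5.78 FPKM in MRTFB dN against 3.26 and 3.62 FPKM in the Puro vector. Like MFAP5 it was therefore higher in both libraries of each factor than in its vector, which restates the likeness by which RHOBTB3 was named. The 2 YAP 5SA libraries stand far from the other 12 and carry much of each r. Without them r was 0.888 for RHOBTB3 and 0.805 for COL4A3 with MFAP5. It was 0.43 for BCAR4 and 0.336 for HSD3B1 with OLR1, and it was 0.706 for BCAR4 and 0.231 for HSD3B1 with RGCC.

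Among the 3 genes themselves, r over 14 libraries was 0.886 for OLR1 with MFAP5, 0.958 for OLR1 with RGCC and 0.927 for MFAP5 with RGCC. Over the 12 libraries without YAP 5SA it was 0.278, 0.161 and 0.691 for the same pairs. MFAP5 and RGCC thus varied alike also outside YAP 5SA, both being highest there in MRTFB dN dPY replicate 2, whereas OLR1 was highest there in MRTFB dN Y305A/dPY replicate 2. These libraries share their cell line and their scaling, and near-zero levels make the second set of values imprecise.

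**Figure D3:**
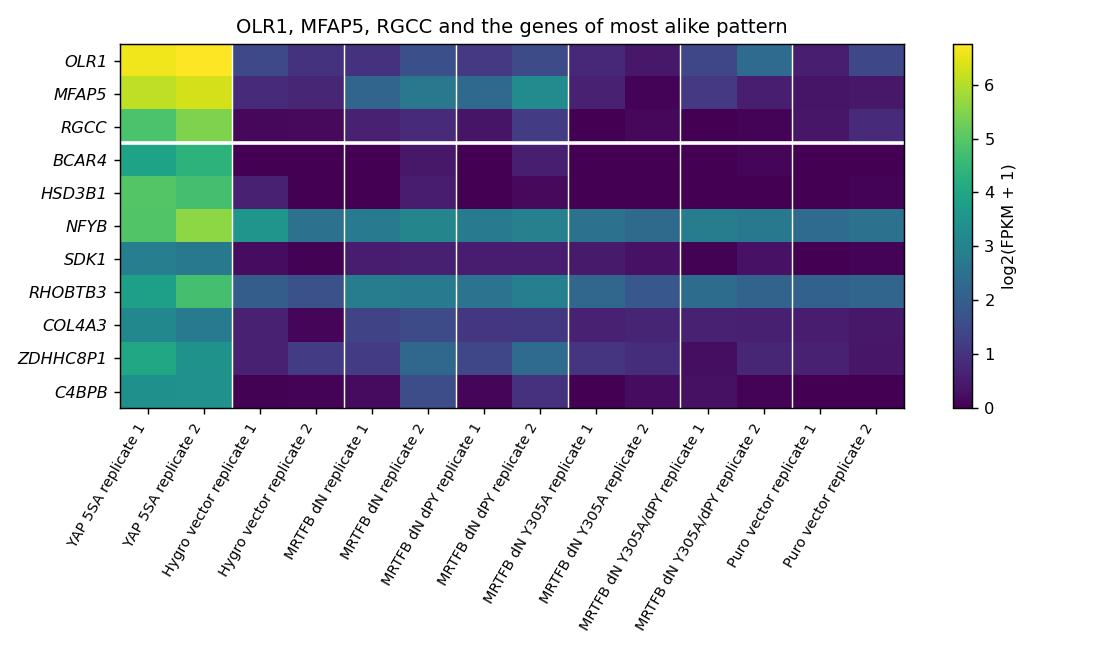
Level of OLR1, MFAP5 and RGCC (top) and of the genes with the highest Pearson r to them in each of the 14 libraries; colour gives log2(FPKM + 1). The YAP 5SA pair is the brightest of each row, and in MRTFB dN and MRTFB dN dPY RHOBTB3 and MFAP5 are brighter than in the Puro vector while BCAR4 and HSD3B1 stay under 1 FPKM.

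OLR1 lies on chromosome 12 among C-type lectin genes of immune cells. The 3 protein-coding neighbours on each side, in the RefSeq order of GRCh38.p14, are CLEC9A, CLEC1A and CLEC7A and, on the other side, TMEM52B, GABARAPL1 and KLRD1. CLEC9A was listed at 0 in every library, CLEC1A did not pass 0.167 FPKM, and CLEC7A, the beta-glucan receptor dectin-1, stood at 0.112 and 0.0362 FPKM in the YAP 5SA libraries against 2.37 and 0.813 FPKM in the Hygro vector. CLEC9A and CLEC1A thus stayed near 0 where OLR1 was high, and CLEC7A fell by 1.20 ± 0.29 on the log2(FPKM + 1) scale (adjusted p = 0.029, limma). TMEM52B, the next gene on the other side, stood at 1.08 and 1.17 FPKM in the YAP 5SA libraries against 0.04 and 0 FPKM in the Hygro vector, a difference of 1.06 ± 0.17. It reached 1 FPKM in the YAP 5SA libraries alone, so it entered the fit through the group where it is high, and its difference is given as a description. GABARAPL1, an autophagy gene of the ATG8 family, stood at 63.1 and 78.9 FPKM in the YAP 5SA libraries against 19.2 and 16.2 FPKM in the Hygro vector, and rose by 1.94 ± 0.36 (adjusted p = 0.0097, limma). It also rose in MRTFB dN against the Puro vector, by 1.71 ± 0.36 (adjusted p = 0.0048), though not against the Hygro vector (0.98, adjusted p = 0.083). In YAP 5SA minus the Hygro vector 3.93% of tested loci were called higher, 4.34% lower and 8.27% in either direction. Without YAP 5SA replicate 2 the adjusted p was 0.11 for GABARAPL1 and 0.21 for CLEC7A in limma; without replicate 1 it was 0.051 for GABARAPL1 and 0.12 for CLEC7A, and CLEC7A had 0.15 without Hygro vector replicate 1 and 0.064 against the Puro vector.

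MFAP5 lies on the same chromosome, with CLEC4D and CLEC4E on one side and RIMKLB, A2ML1 and PHC1 on the other. CLEC4D and CLEC4E, lectin genes of immune cells, were listed at 0 in every library. RIMKLB, which adds glutamate to N-acetylaspartate, stood at 49.9 and 49.1 FPKM in the YAP 5SA libraries against 4.75 and 4.09 FPKM in the Hygro vector. It rose by 3.22 ± 0.34 on the log2(FPKM + 1) scale (adjusted p = 0.00063, limma), and the call held without any single library and against the Puro vector, where the difference was 3.09. In MRTFB dN it stood at 2.62 and 5.48 FPKM against 4.37 and 5.59 FPKM in the Puro vector, an overlap. A2ML1, a protease inhibitor of stratified epithelia, went the other way, with 3.8 and 3.2 FPKM in the YAP 5SA libraries against 114 and 38.4 FPKM in the Hygro vector, and fell by 3.91 ± 0.80 (adjusted p = 0.015, limma). The fall of A2ML1 depended on the vector: against the Puro vector the difference was 0.18 (adjusted p = 0.91, limma), and leaving out YAP 5SA replicate 1, YAP 5SA replicate 2 or Hygro vector replicate 1 gave adjusted p of 0.078, 0.13 and 0.09. PHC1 differed by 0.65 ± 0.31 (adjusted p = 0.24).

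RGCC lies on chromosome 13 between KBTBD7, MTRF1 and NAA16 on one side and VWA8, DGKH and AKAP11 on the other, all 6 of which were tested. None of them passed the test in YAP 5SA minus the Hygro vector, where 8.27% of all tested loci were called in either direction. With 6 genes that is near the share over all loci. The nearest was NAA16, an N-terminal acetyltransferase subunit, with 1.01 ± 0.33 (adjusted p = 0.089, limma). NAA16 stood at 4.75 and 4.85 FPKM in the YAP 5SA libraries against 2.52 and 1.35 FPKM in the Hygro vector. In MRTFB dN minus the Puro vector 3 of the 6 fell: MTRF1 with a log2 difference of -1.36 ± 0.29 (adjusted p = 0.0056), NAA16 with -1.36 ± 0.33 (adjusted p = 0.01) and DGKH with -1.73 ± 0.41 (adjusted p = 0.0087). In that comparison 15% of tested loci were called lower, 21.8% higher and 36.8% in either direction. Against the Hygro vector none of the 3 passed, with adjusted p of 0.1 for MTRF1, 0.37 for NAA16 and 0.55 for DGKH. Without MRTFB dN replicate 1 the adjusted p was 0.059, 0.094 and 0.064 for MTRF1, NAA16 and DGKH, and without Puro vector replicate 1 it was 0.061 for NAA16 and 0.055 for DGKH.

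**Figure D4:**
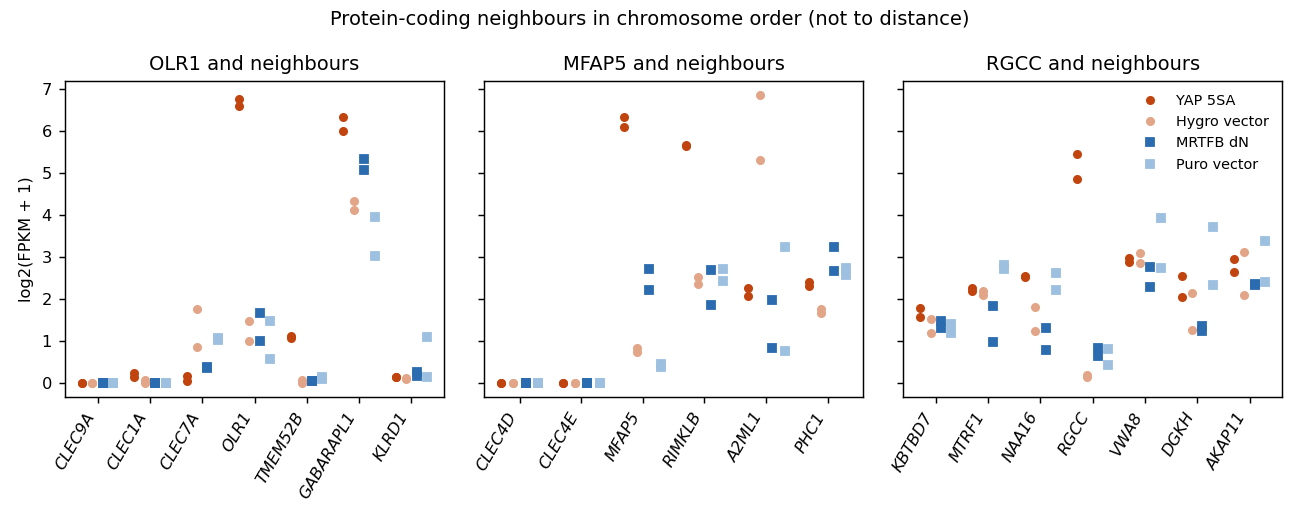
Level on the log2(FPKM + 1) scale of OLR1, MFAP5, RGCC and the protein-coding neighbours on each side that are reported here, in chromosome order and not to distance; each point is a library. RIMKLB beside MFAP5 has the highest increase in YAP 5SA (3.22) of the tested neighbours, while the lectin genes CLEC9A, CLEC4D and CLEC4E are at 0.

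OLR1 belongs to the scavenger receptors by function. Of 20 scavenger and lipoprotein receptor genes 12 were tested; 2 rose in YAP 5SA against the Hygro vector, none fell and 10 did not pass, where 3.93% of all tested loci were called higher. The list median was -0.57 against -0.01 over all tested loci, the opposite sign from its calls. SCARA3, a scavenger receptor-like protein of the oxidative stress response, stood at 21.8 and 13.9 FPKM in the YAP 5SA libraries against 1.93 and 2.91 FPKM in the Hygro vector, and rose by 2.44 ± 0.39 (adjusted p = 0.0063, limma). VLDLR, a lipoprotein receptor, stood at 5.33 and 4.95 FPKM in the YAP 5SA libraries against 1.33 and 0.527 FPKM in the Hygro vector, and rose by 1.70 ± 0.30 (adjusted p = 0.0091). Both also rose in MRTFB dN against the Puro vector, by 2.52 and 1.91 (adjusted p = 0.0012 and 0.0013). In MRTFB dN against the Puro vector 4 of the 12 rose and 2 fell, with a list median of 0.10, where 21.8% of all tested loci were called higher and 15% lower. Those that fell were the lipoprotein receptors LRP1 (-1.19, adjusted p = 0.012) and LRP8 (-1.57, adjusted p = 0.0022), and LRP1 was not called against the Hygro vector (adjusted p = 0.21) or without MRTFB dN replicate 1 (adjusted p = 0.11). SCARA3 and VLDLR have no value in MRTFB dN dPY replicate 1, and with its zeros kept neither passed in YAP 5SA (adjusted p = 0.22 and 0.38) or in MRTFB dN (adjusted p = 0.092 and 0.17). In YAP 5SA minus the Hygro vector the adjusted p of SCARA3 was 0.058 without YAP 5SA replicate 1, and that of VLDLR was 0.069 without replicate 1, 0.079 without replicate 2 and 0.12 against the Puro vector.

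Most markers of the cell types in which OLR1 is best known were under 1 FPKM, in YAP 5SA and in the Hygro vector alike. The 8 endothelial markers were all under 1 FPKM in YAP 5SA and in the Hygro vector, with sums of 0.731 and 0.424 FPKM in the YAP 5SA libraries against 0.662 and 0.454 FPKM in the Hygro vector. The 10 leukocyte markers summed to 10.3 and 7.92 FPKM in the YAP 5SA libraries against 63.7 and 22.8 FPKM in the Hygro vector. In each of these groups 8 of the 10 were under 1 FPKM in both libraries. At 0 were 3 of them in both YAP 5SA libraries and 4 in both Hygro libraries. Most of each sum came from CD14 and CSF1R, and neither passed between these groups (adjusted p = 0.091 and 0.16, limma). In RNA from whole cultures, fewer cells of a type and less RNA per cell cannot be told apart.

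MFAP5 binds fibrillins, and both fibrillin genes that could be tested rose with it in YAP 5SA. FBN1, the main fibrillin, stood at 9.35 and 6.83 FPKM in the YAP 5SA libraries against 0.277 and 0.362 FPKM in the Hygro vector. It rose by 2.77 ± 0.35 on the log2(FPKM + 1) scale, 6.82-fold on FPKM + 1 (adjusted p = 0.0016, limma), and the call held without any single library. FBN2, the fibrillin best known from development, stood at 25.8 and 19.3 FPKM in the YAP 5SA libraries against 2.09 and 3.12 FPKM in the Hygro vector, and rose by 2.71 ± 0.57 (adjusted p = 0.018). FBLN5, a fibulin of elastic fibre assembly, had 5.38 and 3.68 FPKM in YAP 5SA, against 0.194 and 0.0795 FPKM in the Hygro vector, and rose by 2.27 ± 0.46 (adjusted p = 0.014). LTBP2, a fibrillin-binding protein, had 38.5 and 28.3 FPKM in YAP 5SA, against 9.26 and 8.53 FPKM in the Hygro vector, and rose by 1.78 ± 0.48 (adjusted p = 0.045). In all 4 genes both YAP 5SA libraries lay above both Hygro libraries. Altogether 4 of 19 tested microfibril and elastic fibre genes rose in YAP 5SA, none fell and 15 did not pass, where 3.93% of all tested loci were called higher. The list median was -0.01, as over all tested loci. LOX, which crosslinks elastin, was at 63.9 and 55.4 FPKM in the YAP 5SA libraries against 10.1 and 17.8 FPKM in the Hygro vector, a difference of 2.06 that did not pass (adjusted p = 0.2). MFAP2, the closest relative of MFAP5, stayed too low to be tested. The calls of FBN2, FBLN5 and LTBP2 rested on single libraries, with adjusted p of 0.11, 0.1 and 0.21 with YAP 5SA replicate 1 left out, 0.1, 0.078 and 0.17 with its replicate 2 left out, and 0.085, 0.057 and 0.12 without Hygro vector replicate 1. Without Hygro vector replicate 2 FBLN5 had 0.062 and LTBP2 0.15, LTBP2 was also lost without any single library of the MRTFB groups, and against the Puro vector FBN2 differed by 0.67 (adjusted p = 0.48).

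Among the MRTFB forms the fibrillin genes followed MFAP5 in part. In MRTFB dN dPY FBN1 stood at 1.16 and 3.46 FPKM against 0.676 and 1.49 FPKM in the Puro vector, an overlap. FBN2 stood there at 26.5 and 64.1 FPKM against 11.1 and 16.7 FPKM, without overlap. In MRTFB dN against the Puro vector FBN1 rose by 1.03 (adjusted p = 0.039, limma) and FBN2 by 1.93 (adjusted p = 0.024), and neither call held without MRTFB dN replicate 1 (adjusted p = 0.09 and 0.069), MRTFB dN replicate 2 (adjusted p = 0.16 and 0.12) or Puro vector replicate 1 (adjusted p = 0.2 and 0.12). FBLN5 and LTBP2 did not pass there, at 0.12 and -0.80. The list as a whole went in both directions in MRTFB dN, with 6 of 19 higher (21.8% of all tested loci), 4 lower (15% of all tested loci) and a median of -0.05. TGFB2, a TGF-beta ligand, rose by 4.48 (adjusted p = 8.7e-05), LTBP1, which holds latent TGF-beta on microfibrils, by 2.48 (adjusted p = 0.0067), and LTBP4 fell by 2.46 (adjusted p = 0.0024). LTBP1 missed the threshold without Puro vector replicate 1 (adjusted p = 0.053) and stood at it without MRTFB dN replicate 1 (adjusted p = 0.05), and FBN1 missed it with a pseudocount of 0.1 (adjusted p = 0.064). In MRTFB dN Y305A/dPY minus MRTFB dN dPY, where MFAP5 fell, 7 of the 19 fell and 1 rose, where 10.7% of all tested loci were called lower and 6.76% higher. The difference was -1.15 for FBN1 (adjusted p = 0.043), -2.28 for FBN2 (adjusted p = 0.019) and -5.63 for LTBP1 (adjusted p = 5.2e-05). Fibroblast markers, which often accompany matrix genes, were low in YAP 5SA: all 8 were under 1 FPKM there. Their sums were 1.44 and 1.41 FPKM in YAP 5SA against 6.49 and 5.29 FPKM in the Hygro vector. In MRTFB dN against the Puro vector the 3 that could be tested went in both directions. The locus of COL3A1 rose by 1.67 (adjusted p = 0.0036, limma), DCN differed by -2.40 (adjusted p = 0.0072, limma) and COL1A1 did not pass.

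**Figure D5:**
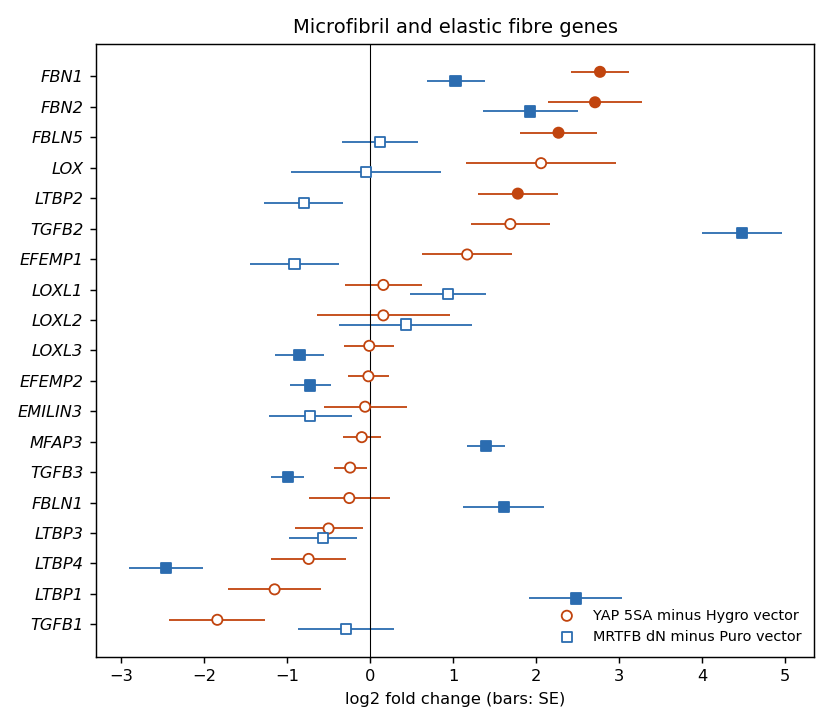
Log2 difference on log2(FPKM + 1) for the 19 tested microfibril and elastic fibre genes in YAP 5SA minus Hygro vector (circles) and MRTFB dN minus Puro vector (squares); bars are the SE, and filled symbols passed the test (adjusted p under 0.05). FBN1, FBN2, FBLN5 and LTBP2 passed in YAP 5SA, and FBN1 and FBN2 in both comparisons.

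RGCC has been reported to act with CDK1 and to respond to complement, so mitotic entry genes and complement genes were set beside it. CDK1 stood at 36.8 and 56.8 FPKM in the YAP 5SA libraries against 6.56 and 17.6 FPKM in the Hygro vector, and rose by 1.98 ± 0.53 (adjusted p = 0.045, limma). The locus of cyclin A2 (CCNA2), a CDK partner whose values are reported together with BBS7, rose by 1.46 ± 0.28 (adjusted p = 0.011). These were the 2 of 18 mitotic entry genes that passed, none fell (3.93% of all tested loci were called higher), and the list median was 1.03 against -0.01 over all tested loci. The counts rested on single libraries, with none of the 18 called once either YAP 5SA library or Hygro vector replicate 1 was left out, and 8 higher and 1 lower without Hygro vector replicate 2. Against the Puro vector CDK1 differed by 0.84 (adjusted p = 0.33). In MRTFB dN against the Puro vector CDKN1A, the inhibitor p21, was the 1 gene of the 18 that rose, by 3.38 (adjusted p = 0.00013, limma), while 2 fell. Of all tested loci 21.8% were called higher there and 15% lower, so both counts lay below the shares over all loci. The call of CDKN1A did not hold against the Hygro vector, where it differed by 0.72 (adjusted p = 0.24).

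Of 23 complement genes and regulators 12 were tested; none rose in YAP 5SA and 1 fell, where 3.93% of all tested loci were called higher and 4.34% lower. That gene was CFB, complement factor B, at 2.18 and 2.1 FPKM in the YAP 5SA libraries against 234 and 17.1 FPKM in the Hygro vector, lower by -4.38 ± 1.03 on the log2(FPKM + 1) scale (adjusted p = 0.027, limma). The Hygro libraries differed widely, and without Hygro vector replicate 1 the difference was -2.53 (adjusted p = 0.12). It was not called with YAP 5SA replicate 1 left out (adjusted p = 0.12), with replicate 2 left out (adjusted p = 0.17) or against the Puro vector (adjusted p = 0.067). In MRTFB dN against the Puro vector 3 of the 12 rose and 4 fell, with a list median of -1.04, where 21.8% of all tested loci were called higher and 15% lower. Clusterin (CLU), a regulator of the terminal complex, rose by 4.64 (adjusted p = 2.3e-05), though not where the zeros of MRTFB dN dPY replicate 1 were kept (adjusted p = 0.13). CD55, which speeds the decay of convertases, fell by 1.89 (adjusted p = 0.0014), and was not called against the Hygro vector (adjusted p = 0.17). Other regulators on the list went the other way. CD46 rose by 1.83 (adjusted p = 0.0043, limma) and the locus of CD59, shared with C11orf91, by 2.04 (adjusted p = 0.0013, limma).

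Reported targets of the factors themselves give a scale for the levels of change. Of 22 reported YAP/TEAD targets, none of which is OLR1, MFAP5 or RGCC, 8 rose in YAP 5SA against the Hygro vector and none fell, with a list median of 1.43 (3.93% of all tested loci were called higher). In MRTFB dN against the Puro vector 10 of the 22 rose and 1 fell, with a median of 1.24, where 21.8% of all tested loci were called higher and 15% lower. All 21 tested MRTF/SRF targets rose in MRTFB dN against the Puro vector, with a median of 4.97. TAGLN2, at 749 and 518 FPKM in MRTFB dN, overlapped the Hygro vector (377 and 782 FPKM). In YAP 5SA 1 of them, the tropomyosin gene TPM1, rose (311 and 269 FPKM, against 23.4 and 118 FPKM in the Hygro vector, adjusted p = 0.043, limma). The Hygro libraries were split on this list, for example MYL9 at 4.14 and 38.4 FPKM and FLNA at 113 and 549 FPKM. Replicate 2 was the higher for every tested member but ACTA2 and FHL1. A target that missed the threshold in YAP 5SA is therefore not shown to be unchanged. That call of TPM1 was lost with YAP 5SA replicate 1, YAP 5SA replicate 2 or Hygro vector replicate 1 left out (adjusted p = 0.18, 0.2 and 0.18), and in the last case the difference was 1.28. In MRTFB dN Y305A/dPY minus MRTFB dN dPY, 10 of the 22 YAP/TEAD targets and 17 of the 21 MRTF/SRF targets fell and none rose, where 10.7% of all tested loci were called lower. The values of OLR1, MFAP5 and RGCC in MRTFB dN (0.30, 2.04 and 0.11) are not read against these medians, since the genes were chosen by them. The count of 8 YAP/TEAD targets became 3 with YAP 5SA replicate 1 left out, 5 with its replicate 2 left out and 11 without either Puro library.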

How the data were processed

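Poly(A) RNA libraries (stranded kit, paired reads) were made from MCF-10A cells, per the labels' protocols. The authors deposited 1 table of FPKM per locus, 1 column per library. Per the submitters' processing notes Bowtie, TopHat, Cufflinks and Cuffnorm on hg19 were used; versions, annotation, strand setting and library scaling are not given in the sources used here. Absolute depth is therefore unknown and no counting interval can be given.

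The 13137 named loci that reached 1 FPKM in 2 or more libraries entered limma 3.58.1 (R 4.3.3) as log2(FPKM + 1), in 1 fit of all 14 libraries on group, with an intensity trend, two-sided. The residual degrees of freedom were 7 (6 for loci missing in 1 library), the prior 3.77, and p-values were adjusted by Benjamini-Hochberg within a comparison at 0.05. A fold change on this scale understates that of low genes. In MRTFB dN dPY replicate 1, runs of 100 or more loci at 0 were treated as missing. Of the tested loci 968 carry several gene names. Tables were made in Python 3.11.15 with pandas 2.3.3 and numpy 2.4.6. The fit was tested on simulated data.

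Named were the 3 genes, their 5 most alike genes, 3 protein-coding neighbours on each side, up to 4 called genes per list and comparison by size, CTGF, CYR61, ANKRD1, YAP1 and MKL2; not all of these are printed, and some are not reported here. LOX, PHC1, MFAP2 and LTBP1 under loss of SRF binding are given besides. The genes and lists were chosen with earlier results of these data known. Sequences are from RefSeq, GRCh38.p14. Alternatives were leaving out each library, the other vector, a replicate block, no trend, a fit of the compared groups, a median-of-ratios scaling, no filter and a pseudocount of 0.1; chosen after seeing the data were keeping the zeros, the block within the MRTFB groups, and the lists under left-out libraries.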

Additional observations from a re-analysis of the deposited data

How the results depend on the processing

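With 2 libraries a group, left-out libraries leave 1 sample, assumed to vary like the others, and FPKM gives no counting error. No filter, no trend and scaling by the median of ratios changed no value here beyond its spread. With a pseudocount of 0.1 YAP 5SA minus Hygro vector was 6.15 for OLR1, 6.50 for MFAP5 and 7.29 for RGCC; MFAP5 minus Puro vector was 3.42 in MRTFB dN, 3.80 in MRTFB dN dPY, -0.43 in MRTFB dN Y305A and 1.02 in MRTFB dN Y305A/dPY; minus Puro vector RGCC was -2.08 in MRTFB dN Y305A and -2.33 in MRTFB dN Y305A/dPY, and OLR1 1.41 in MRTFB dN Y305A/dPY. In MRTFB dN Y305A/dPY minus MRTFB dN dPY RGCC became -2.62 (adjusted p = 0.015, limma), and in MRTFB dN Y305A/dPY minus MRTFB dN Y305A 0 loci were called. With the other vector YAP 5SA minus Puro vector was 5.81 for MFAP5 and 4.53 for RGCC; minus Hygro vector MFAP5 was 1.68 in MRTFB dN, 2.01 in MRTFB dN dPY, -0.42 in MRTFB dN Y305A and 0.07 in MRTFB dN Y305A/dPY, and RGCC 0.56, 0.62, -0.09 and -0.13 in the same forms, with 2508 loci called in MRTFB dN (4837 against the Puro vector). Fits of the compared groups alone called 176 loci in YAP 5SA (1086 with all groups), 1890 in MRTFB dN, 1 in MRTFB dN Y305A/dPY minus MRTFB dN Y305A (2 with all groups) and 1309 minus MRTFB dN dPY (2290 with all groups); MFAP5 there was -1.93 (adjusted p = 0.062). With the zeros of the empty stretches kept, 1 locus was called in MRTFB dN Y305A/dPY minus MRTFB dN Y305A. The cause of these shifts was not tested.

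Same-numbered libraries of 21 pairs of groups deviated from their group means with r of -0.14 to 0.65, over 0.1 in 7 pairs. Of these, 6 were all the pairs among the MRTFB groups, with r of 0.32 to 0.65. Same-numbered MRTFB libraries thus varied alike, also in both comparisons tested for the genes. The main fit, on group alone, took no account of this. With a replicate block over all 14 libraries no result changed its call, MFAP5 staying at -1.93 in MRTFB dN Y305A/dPY minus MRTFB dN dPY. With the block within the MRTFB groups alone RGCC stayed at -0.75 there but passed (adjusted p = 0.032), 4691 loci were called, and 7 in MRTFB dN Y305A/dPY minus MRTFB dN Y305A.

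Leaving out each library in turn, YAP 5SA minus Hygro vector ranged from 5.20 to 5.69 for OLR1, 5.33 to 5.55 for MFAP5 and 4.69 to 5.28 for RGCC, with 164 to 1479 loci called. MRTFB dN minus Puro vector ranged from -0.15 to 0.75 for OLR1, 1.79 to 2.29 for MFAP5 and -0.08 to 0.30 for RGCC, with 2049 to 5080 called. MRTFB dN dPY minus Puro vector ranged from -0.14 to 0.76, 1.91 to 2.84 and -0.22 to 0.55 in the same order of genes, MRTFB dN Y305A minus Puro vector from -0.88 to 0.02, -0.33 to 0.21 and -0.73 to -0.35, and MRTFB dN Y305A/dPY minus Puro vector from 0.42 to 1.34, 0.16 to 0.73 and -0.77 to -0.39. MRTFB dN Y305A/dPY minus MRTFB dN Y305A ranged from 0.85 to 1.77, 0.21 to 0.78 and -0.12 to 0.03, with 1 to 5 called. MRTFB dN Y305A/dPY minus MRTFB dN dPY ranged from 0.11 to 1.03, -2.40 to -1.47 and -1.13 to -0.36, with 1179 to 2728 called. MFAP5 passed there without any single library (adjusted p of 0.0019 to 0.028), and RGCC passed without MRTFB dN dPY replicate 1 (adjusted p = 0.04).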

Other observations

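TEAD1, the DNA-binding partner of YAP, was the sixth most alike gene to MFAP5 and was singled out after its values were seen. It stood at 48.2 and 62.3 FPKM in the YAP 5SA libraries against 11.2 and 8.29 FPKM in the Hygro vector, at 26.1 and 23.5 FPKM in MRTFB dN and at 27.5 and 24.9 FPKM in MRTFB dN dPY. In MRTFB dN Y305A it was at 12.3 and 6.11 FPKM and in MRTFB dN Y305A/dPY at 13.9 and 8.84 FPKM, against 7.37 and 6.06 FPKM in the Puro vector. Its r with MFAP5 was 0.939 over 14 libraries and 0.93 over the 12 without YAP 5SA. Like MFAP5 it was lower in MRTFB dN Y305A/dPY than in MRTFB dN dPY, by 1.17 on the log2(FPKM + 1) scale. The libraries of that comparison had a part in its ranking by likeness to MFAP5, so the fall is given as a description.

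The locus of MIR137 and MIR137HG, also singled out after its values were seen, shared the high level in YAP 5SA, with 35.5 and 49.3 FPKM there against 0.0268 and 0.0256 FPKM in the Hygro vector. Its MRTFB libraries were split within groups: MRTFB dN was at 1.06 and 207 FPKM and MRTFB dN dPY at 238 and 0.733 FPKM in replicates 1 and 2, against 0.157 and 0.0836 FPKM in the Puro vector. ZBED2, a zinc finger gene taken from the same ranking, stood at 33.5 and 35.6 FPKM in the YAP 5SA libraries against 0.898 and 2.8 FPKM in the Hygro vector, and at 0.0406 and 0.136 FPKM in MRTFB dN against 0.3 and 2.73 FPKM in the Puro vector, so it was below both Puro libraries where OLR1 and RGCC overlapped them.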
